A study of Mus musculus with 59 samples.

Results

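Transcripts of 10 mouse genes that the growing oocyte makes or depends on were followed in cloned embryos from the 1-cell to the late 2-cell stage. The genes were chosen by name: the ligands Gdf9 and Bmp15, the transcription factors Figla, Nobox, Sohlh1 and Lhx8, the receptor Kit, and the oocyte proteins Oosp1, Rfpl4 and Spin1. All 10 were found among the 24421 genes of the expression table. The embryos were clones: in somatic cell nuclear transfer (SCNT) an egg is stripped of its own nucleus and given that of a donor cell, here a cumulus cell, one of the somatic cells around the oocyte. The labels list 59 samples, of which 24 are RNA libraries from poly(A) RNA and 35 are chromatin libraries that were not analysed here.

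4 groups were used, each of 5 RNA libraries from SCNT embryos labelled strain BDF1. Untreated embryos were collected as 1-cell embryos at 13 to 14 h after activation, as early 2-cell embryos at 20 to 21 h and as late 2-cell embryos at 33 to 34 h. The 4th group had received trichostatin A (TSA), which inhibits histone deacetylases, and was also collected as late 2-cell embryos at 33 to 34 h. The sources used here give no dose or duration of TSA. The protocol names superovulated C57BL/6n females of 5 to 7 weeks as the source of oocytes, and the zona pellucida and polar bodies were removed before lysis. The sources used here do not say how many embryos went into a library. Each gene has a single value for each group, so no value below has an SD, an error or a p-value, and a difference can be given only by its size. Values are FPKM, fragments scaled to transcript length and to the mapped fragments of the library, deposited by the authors as log2(FPKM + 1). FPKM is scaled by transcript length, so levels of different genes in 1 column can be set side by side, but only roughly. Other differences between genes, such as reads shared by copies, are not adjusted for.

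During follicle growth, FIGLA and SOHLH1, which are basic helix-loop-helix factors, and the homeodomain factors NOBOX and LHX8 switch on the genes that make an oocyte. Their known outputs include the secreted growth factors GDF9 and BMP15, which act on the surrounding granulosa cells, and KIT, the receptor through which those cells act back on the oocyte. The full-grown oocyte then stops transcription and carries its mRNA through meiosis into the embryo, where most of it is removed as the embryo's own genome becomes active around the 2-cell stage. A cloned embryo starts with the same stored oocyte mRNA, so its first transcript pool includes what the oocyte left.

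The upstream sequences of 4 of the genes are shown because their late 2-cell values, as deposited, ranged from 63.0% of the 1-cell value for Oosp1 through 25.4% for Bmp15 and 8.31% for Nobox to the lowest share of the 8 genes above 1 FPKM, that of Rfpl4. Each runs 5′ to 3′ from 250 bases before to 50 bases after the start site on the gene's own strand (RefSeq, GRCm38.p6). Capitals mark matches to CANNTG, the E-box core that basic helix-loop-helix factors bind, and to TAATTG or TAATTA, core letters of homeodomain sites. CANNTG and TAATTA read the same on both strands, TAATTG was searched on both, and no 2 capital runs overlap.
Rfpl4, chr7:5116862-5117161, minus strand: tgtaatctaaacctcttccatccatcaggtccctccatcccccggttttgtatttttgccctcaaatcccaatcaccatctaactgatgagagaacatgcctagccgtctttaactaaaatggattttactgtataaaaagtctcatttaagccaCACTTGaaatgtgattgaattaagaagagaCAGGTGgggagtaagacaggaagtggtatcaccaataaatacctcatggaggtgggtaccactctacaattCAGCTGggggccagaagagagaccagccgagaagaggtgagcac
Nobox, chr6:43309505-43309804, minus strand: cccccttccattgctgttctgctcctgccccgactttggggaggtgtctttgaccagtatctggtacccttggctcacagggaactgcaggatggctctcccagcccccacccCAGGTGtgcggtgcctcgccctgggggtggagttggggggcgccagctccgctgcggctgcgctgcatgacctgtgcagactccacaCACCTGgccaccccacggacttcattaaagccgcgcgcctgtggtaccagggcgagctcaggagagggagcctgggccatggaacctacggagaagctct
Bmp15, chrX:6320675-6320974, minus strand: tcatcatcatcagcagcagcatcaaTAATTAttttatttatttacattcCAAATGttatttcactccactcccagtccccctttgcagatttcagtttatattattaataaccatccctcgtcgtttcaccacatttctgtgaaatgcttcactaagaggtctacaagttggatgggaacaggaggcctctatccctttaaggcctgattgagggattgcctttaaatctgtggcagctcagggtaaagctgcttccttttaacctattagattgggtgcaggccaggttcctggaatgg
Oosp1, chr19:11691002-11691301, minus strand: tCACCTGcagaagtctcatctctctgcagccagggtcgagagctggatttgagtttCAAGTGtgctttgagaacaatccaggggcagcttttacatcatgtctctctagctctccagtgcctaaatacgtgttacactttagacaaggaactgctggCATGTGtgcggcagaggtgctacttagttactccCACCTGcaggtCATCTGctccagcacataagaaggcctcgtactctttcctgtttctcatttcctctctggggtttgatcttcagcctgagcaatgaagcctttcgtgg
Rfpl4 has 3 CANNTG matches, at -95, -65 and 7 from the start site, Nobox has 2, Bmp15 has 1 and Oosp1 has 5. Only Bmp15 among these holds TAATTA, at -225, and none of the 4 holds TAATTG. Of 32851 windows of the same length in the RefSeq table, 72.3% hold at least 1 CANNTG, 8.0% hold TAATTG and 5.29% hold TAATTA. Windows of all genes but Gdf9 were matched by symbol, 12 windows in all since Kit has 2 and Spin1 3. Of the others, the Figla window has 4 CANNTG matches and the Sohlh1 window 5, while the Lhx8 window has none of the 3 motifs. The 2 overlapping Kit windows have 1 CANNTG match each. The 3 Spin1 windows have 1, 0 and 4, and that with 0 also has none of the 3 motifs. The matches are letters in these windows and not measured binding.

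The oocyte makeup of the RNA was checked first. All 12 oocyte markers (among them Zp1, Zp2, Zp3, Nlrp5 and Dppa3) stood at 1 FPKM or more in each of the 4 columns. Their sum was 6996, 7615, 1921 and 1586 FPKM in 1-cell, early 2-cell, late 2-cell and TSA-treated embryos. Dppa3 alone held 3321, 4830, 1142 and 999 of it. Between the 2-cell stages 7 of the 12 were at least 2-fold lower, against 10.9% of all genes, and 2, Zp1 and Zp3, were higher, against 47.9%. Of 16 markers of the 2-cell stage in the table, 8 reached 1 FPKM at the 1-cell and at the early 2-cell stage, 14 at the late 2-cell stage and 15 with TSA. Of 20 cumulus and granulosa markers, which could mark donor or adhering cells, 6, 6, 6 and 7 reached 1 FPKM in the same order. Their sum was 43.6, 36.6, 82.5 and 97.3 FPKM, of which Nr5a2 alone held 19.5, 13.8, 52.7 and 69.0. Of the 9 kept between the 2-cell stages, 5 were at least 2-fold higher (Amhr2, Fshr, Kitl, Hsd17b1 and Nr5a2), near the 47.9% of all genes. Another 2 were lower (Cyp19a1 and Hsd3b1), against 10.9%, and Inha was listed at 0 in all but the 1-cell column. Of 10 blood markers, 0, 1, 6 and 6 reached 1 FPKM, and they summed to 0.746, 5.26, 88.6 and 131 FPKM. All 6 that were kept between the 2-cell stages were at least 2-fold higher at the late one, against 47.9% of all genes. These were Cd74, Cd52, Lyz2, Hba-a1, Hba-a2 and Coro1a, while Ptprc, Tyrobp, Hbb-bs and Hbb-bt were listed at 0 there. Both sums were higher at the late 2-cell stage, the cumulus sum mostly through Nr5a2. Whether these transcripts came from such cells or from the embryo, and their part in the results, was not tested. Zeros need care, because Gapdh, which cells use generally, had only 0.0282 FPKM at the 1-cell stage and 0.908 FPKM in untreated late 2-cell embryos.

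In the 1-cell embryo the 10 genes covered a wide range of levels. Spin1 encodes spindlin, a reader of methylated histone H3 that was first described as an abundant protein of the meiotic spindle, and at 22919 FPKM it was the most abundant transcript of all, 2.86 times the next one (Tcl1, 8024 FPKM). Bmp15 ranked 36th at 1546 FPKM, Oosp1 46th at 1311 FPKM and Rfpl4 57th at 1182 FPKM. Gdf9 stood at 74.8 FPKM, Nobox at 52.6, Kit at 21.7 and Lhx8 at 11.4. The other two, Figla at 0.238 FPKM and Sohlh1 at 0.0454 FPKM, stayed under 1 FPKM in each of the 4 columns. So 8 of the 10 genes passed the filter of at least 1 FPKM in a column compared, and these 8 stood above 1 FPKM in every column, not only where they were high.

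**Figure D1:**
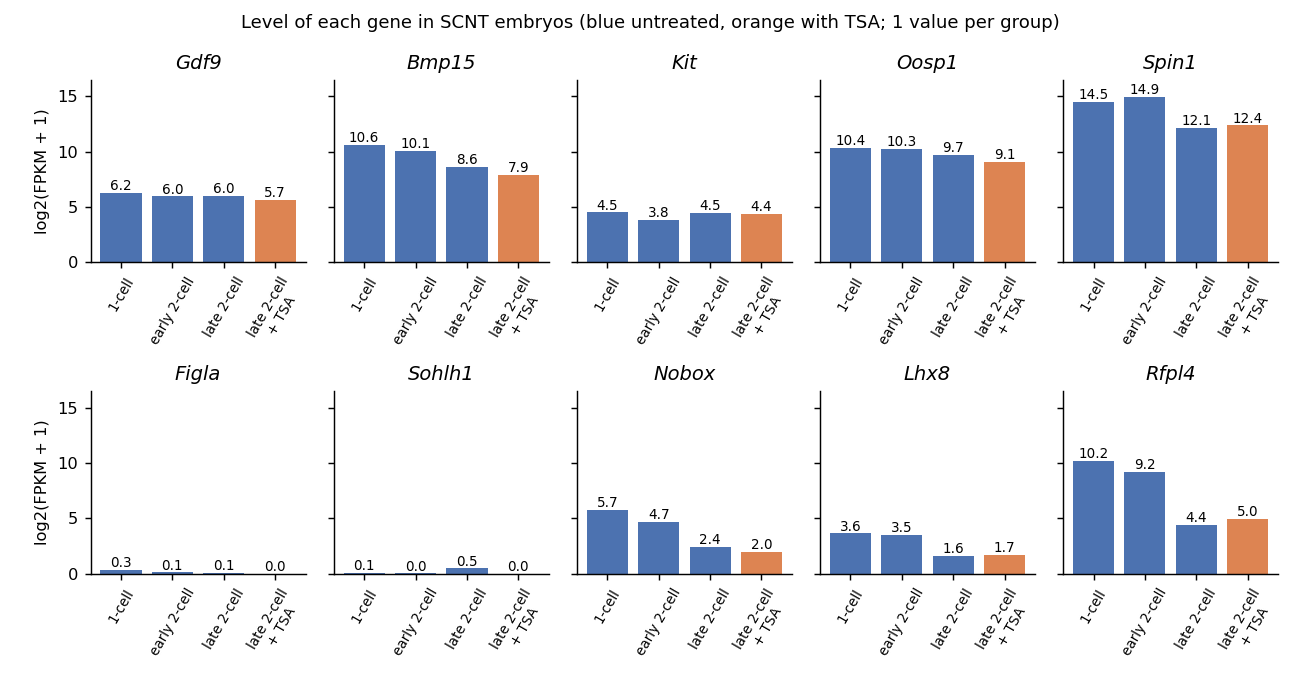
Level of each gene as log2(FPKM + 1) (y axis, from 0) in the 4 columns (x axis: 3 untreated stages in blue, TSA in orange), with 1 value per group and no error bars. Figla and Sohlh1 lie near 0 throughout, Gdf9 and Kit are nearly level as deposited, and Rfpl4 goes from 10.2 at the 1-cell stage to 4.4 at the late 2-cell stage.

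The late 2-cell order was different. Spin1 still led the 10 genes at 4540 FPKM, followed by Oosp1 at 826 FPKM, Bmp15 at 393 FPKM, Gdf9 at 63.1 FPKM, Kit at 21.3 FPKM and Rfpl4 at 20.5 FPKM. Nobox at 4.37 FPKM and Lhx8 at 2.08 FPKM came last of those above 1 FPKM. Rfpl4 had moved from rank 57 to rank 4154 of the table and Nobox from 1533 to 8491, whereas Oosp1 was at rank 46 before and 50 after. Without replicates it cannot be said which neighbours in these orders differ beyond their spread.

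Over the whole interval from 1-cell to late 2-cell embryos, 5 of the 8 genes (Bmp15, Nobox, Lhx8, Rfpl4 and Spin1) were at least 2-fold lower, against 13.8% of 12880 genes kept, and 0 were at least 2-fold higher, against 45.7%. Among the 4422 genes with 10 FPKM or more in 1-cell embryos, a level that all 8 had, 28.3% were 2-fold lower. A gene counted as 2-fold apart when its log2(FPKM + 1) values differed by 1 or more. The median difference of the 8 genes was -1.99, against 0.83 for all genes kept. The 45.7% and the 0.83 cover genes of any starting level. They were not taken among the 4422 genes, so they are not matched in level to the 8. The late 2-cell column holds many more expressed genes than the early ones (12215 against 9419 with 1 FPKM in 1-cell embryos), and after median-ratio scaling the median of all genes was 0.011. The share of higher genes among all those 2-fold apart was 76.8% as deposited, 52.5% after that scaling and 47.4% after quantile normalization. The same 5 genes stayed 2-fold lower under these and the other 6 settings tried, to which median-ratio scaling added Gdf9 and Oosp1. Of all genes kept, 27.7% were 2-fold lower after median-ratio scaling and 29.7% after quantile normalization, against 13.8% as deposited. These are bulk values, so fewer cells that hold a transcript and less of it per cell cannot be told apart. The libraries are from poly(A) RNA, so a changed poly(A) tail and a changed amount of a transcript cannot be told apart either.

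The ligands came apart. Gdf9 and Bmp15 encode paralogous growth factors of the TGF-beta family that can pair into a heterodimer. Gdf9 was listed at 74.8 FPKM in 1-cell embryos, then at 61.3 FPKM early and 63.1 FPKM late in the 2-cell stage, and at 49.8 FPKM with TSA. Its late 2-cell value was 84.4% of the 1-cell value, a difference of -0.24 as deposited, of -1.14 after median-ratio scaling and of -0.63 after quantile normalization. Bmp15 was listed at 1546, 1075, 393 and 237 FPKM, so each column was lower than the one before. Its late 2-cell value was 25.4% of that at the 1-cell stage, a difference of -1.97. The ratio of Bmp15 to Gdf9 was 20.7, 17.5, 6.22 and 4.76 in the 4 columns. Multiplying a column by a constant does not alter it, but quantile normalization does, under which Bmp15 differed by -1.64 over the interval. Gdf9 lies on chromosome 11 from 53430774 to 53437904 and overlaps Uqcrq, a respiratory chain gene (53427922 to 53430831), whose own values were 33.8, 35.8, 186 and 133 FPKM. The sources used here do not say whether the counting used strand, so reads from the shared stretch cannot be told apart. Bmp15 lies on the X chromosome from 6314054 to 6320724 and overlaps no RefSeq gene.

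Of the transcription factors, the homeodomain genes were present and the helix-loop-helix genes were not above 1 FPKM. Nobox, needed for growth of the early follicle, was listed at 52.6, 24.6 and 4.37 FPKM over the 3 untreated stages and at 2.98 FPKM with TSA. The late 2-cell value was 8.31% of the 1-cell value, a difference of -3.32, and 109 of 12880 genes had a lower one. Lhx8, a LIM homeobox gene of the same programme, was listed at 11.4, 10.1, 2.08 and 2.18 FPKM. It was nearly level to the early 2-cell stage and stood at 18.2% of the 1-cell value at the late one. Nobox was 4.61 times Lhx8 in 1-cell embryos and 2.1 times at the late 2-cell stage. Figla, the activator of the zona pellucida genes, was listed at 0.238, 0.0871, 0.0684 and 0 FPKM. Sohlh1, which acts in early oocytes and in spermatogonia, was listed at 0.0454, 0.0151, 0.395 and 0.00536 FPKM. No fold is given for these, since depth is unknown and both are under 1 FPKM throughout.

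Kit was the steadiest of the 8 genes over the whole interval as deposited. It encodes the receptor tyrosine kinase for KIT ligand, lies on chromosome 5 from 75574987 to 75656722 and was listed at 21.7, 13.4, 21.3 and 19.5 FPKM. The early 2-cell value was the lowest, at 61.9% of the 1-cell value, and the late 2-cell value was 98.3% of it. Over the interval its difference was -0.02 as deposited and -0.90 at the lowest of the alternative settings, so its distance from 0 depends on how the columns are scaled. Relative to the median of all genes it stood at -0.86.

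Among the oocyte proteins, Rfpl4 and Oosp1 started close together and ended far apart. Rfpl4 encodes an oocyte RING-finger protein linked to the ubiquitin pathway and was listed at 1182, 594, 20.5 and 30.5 FPKM. It stood 57.7-fold lower at the late 2-cell than at the 1-cell stage, with a difference of -5.78, and 3 of 12880 genes had a lower one. Oosp1 encodes a small secreted protein of the oocyte and was listed at 1311, 1242, 826 and 541 FPKM. Its late 2-cell value was 63.0% of that at the 1-cell stage, a difference of -0.67 as deposited, of -1.58 after median-ratio scaling and of -0.07 after quantile normalization. Rfpl4 was 0.901 times Oosp1 in 1-cell embryos, 0.478 times at the early and 0.0248 times at the late 2-cell stage. Spin1 was listed at 22919, 30986, 4540 and 5326 FPKM and was 5.05-fold lower at the late 2-cell than at the 1-cell stage. Its share of all summed FPKM was 4.54%, 5.97% and 0.868% at the 3 untreated stages, which is enough to bear on the FPKM of other genes in a column. Leaving Spin1 and the ribosomal precursor Rn45s out of the column totals did not alter which of the 8 genes were 2-fold apart over the interval. Rfpl4 lies on chromosome 7 from 5109787 to 5116911, Oosp1 on chromosome 19 from 11667460 to 11691051 and Spin1 on chromosome 13 from 51097934 to 51152562, where the noncoding 9430083A17Rik overlaps its start at 1.72 FPKM or less.

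The interval was split at the early 2-cell stage, and both steps share that column. At the first cleavage (early 2-cell minus 1-cell), 1 of the 8 genes, Nobox, was at least 2-fold lower, against 7.12% of 10117 genes and 10.8% of those with 10 FPKM or more in 1-cell embryos, and 0 were higher, against 3.72%. A count of 1 of 8 is near the background. Nobox differed by -1.07 and Rfpl4 by -0.99, so these lay just either side of the threshold, and each was on the other side under some settings. Kit differed by -0.65, Bmp15 by -0.52 and Gdf9 by -0.28. Lhx8 at -0.16 and Oosp1 at -0.08 were closest to 0, and their sign was positive at 0.01 after quantile normalization and after median-ratio scaling, respectively. Spin1 alone was above 0, at 0.44, and at 0.00 after quantile normalization, where it leads both columns. The share of higher genes among all those 2-fold apart was 34.3% as deposited, 44.4% after median-ratio scaling and 47.7% after quantile normalization.

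Between the early and the late 2-cell stage, 5 of the 8 genes were at least 2-fold lower, against 10.9% of 12794 genes and 23.0% of the 4134 genes with 10 FPKM or more at the early stage. None of the 8 was 2-fold higher, against 47.9% of genes of any starting level, a share not taken at 10 FPKM or more. Rfpl4 differed by -4.79, a 29.0-fold lower value with 3 genes of the table lower still. Spin1 followed at -2.77, Nobox at -2.25, Lhx8 at -1.85 and Bmp15 at -1.45. These 5 kept their sign and their place beyond 2-fold in all 8 alternative settings. Of all genes kept, 25.6% were 2-fold lower after median-ratio scaling and 27.8% after quantile normalization. Oosp1 at -0.59 and Gdf9 at 0.04 did not reach 2-fold, and Oosp1 was -1.60 after median-ratio scaling and 0.03 after quantile normalization while Gdf9 was -0.95 after median-ratio scaling. Kit was higher, at 0.63 as deposited, and lower at -0.32 after median-ratio scaling. The median of all genes was 0.92 as deposited, and relative to it all 8 genes were lower, from -0.29 for Kit to -5.71 for Rfpl4. The share of higher genes among those 2-fold apart was 81.4% as deposited, 54.1% after median-ratio scaling and 49.0% after quantile normalization. The sums of cumulus and blood markers given above were also higher at the late stage. Most of the rise in the cumulus sum was in Nr5a2, at 13.8 FPKM early and 52.7 FPKM late.

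**Figure D2:**
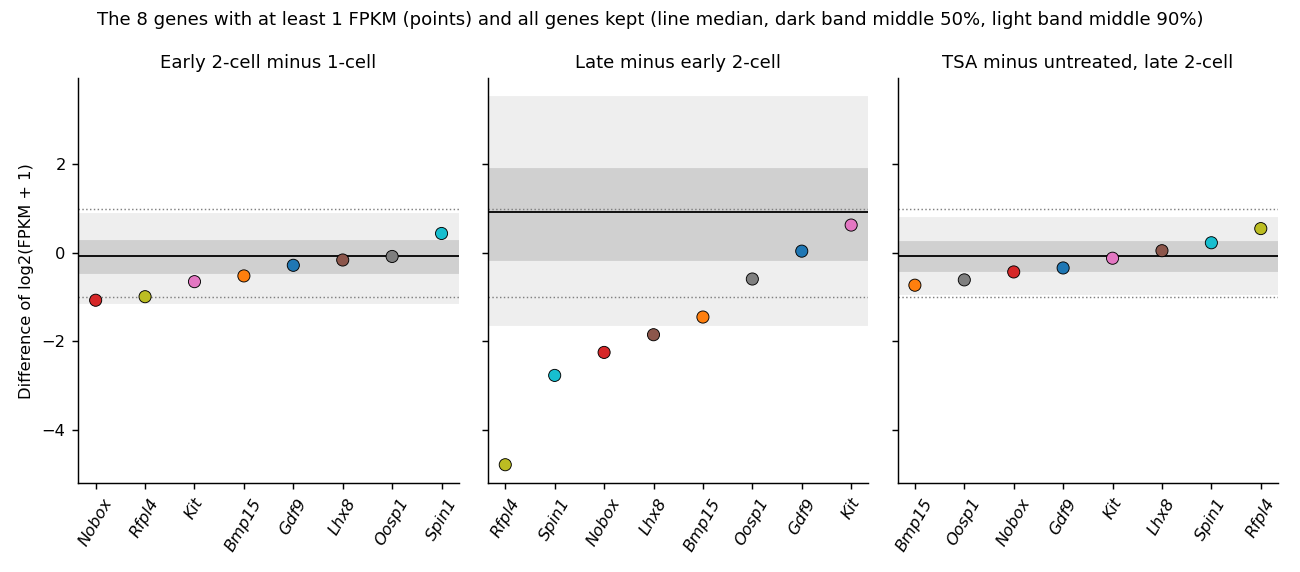
Differences of log2(FPKM + 1) (y axis) for the 8 genes with at least 1 FPKM (points, in order of size) in 3 comparisons, over the median (line), middle 50% (dark band) and middle 90% (light band) of all genes kept. Dotted lines mark 2-fold. Rfpl4, Spin1, Nobox and Lhx8 lie below the light band between the 2-cell stages, and all points lie inside it with TSA.

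**Figure D3:**
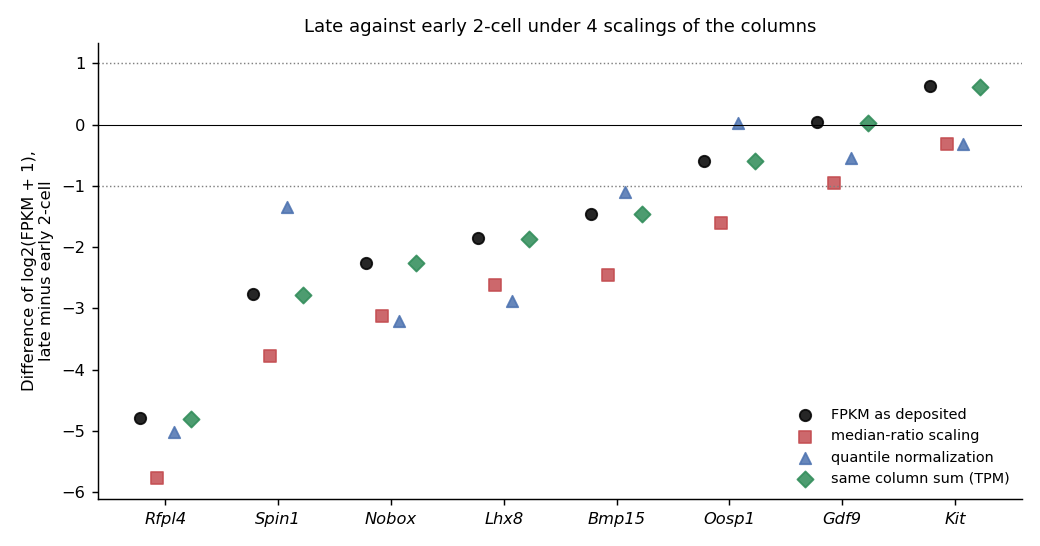
Late minus early 2-cell difference of log2(FPKM + 1) (y axis) of each gene (x axis) for FPKM as deposited and after 3 other scalings of the columns (symbols). Rfpl4, Spin1, Nobox, Lhx8 and Bmp15 lie below -1 under each of them, while Oosp1, Gdf9 and Kit lie on both sides of 0.

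TSA-treated late 2-cell embryos were set against untreated ones, to ask whether inhibition of histone deacetylases goes with another level of these transcripts. None of the 8 genes was 2-fold apart: 0 were lower, against 4.08% of 12756 genes, and 0 were higher, against 2.51%. Bmp15 had the lowest difference at -0.73 (237 FPKM with TSA, 60.3% of the untreated value), with 9.61% of all genes below it. Oosp1 followed at -0.61 and 65.6% of the untreated value, then Nobox at -0.43 and Gdf9 at -0.34. Rfpl4 was on the other side at 0.55, at 149% of the untreated value and above 89.8% of all genes, and Spin1 was at 0.23 or 117%. Lhx8 at 0.05 and Kit at -0.12 were closest to 0, and Kit was 0.02 after median-ratio scaling. The signs of the other 7 were the same in all settings that kept them, and the values of Bmp15 ran from -0.86 to -0.58 and those of Rfpl4 from 0.48 to 0.69. Rfpl4 was 0.0521 times Bmp15 without and 0.129 times with TSA, so within a column these genes stood in another proportion. The median of all genes was -0.08, and the share of higher genes among those 2-fold apart was 38.1% as deposited, 61.2% after median-ratio scaling and 52.7% after quantile normalization. This comparison shares the untreated late 2-cell column with the one before.

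Genes reported to depend on FIGLA or NOBOX include the zona pellucida genes and the Nlrp and Oas1 genes of the oocyte. Most of the 22 listed were lower with stage, but the zona pellucida genes Zp1 and Zp3 were not. Over the whole interval, 16 of 22 were at least 2-fold lower, against 13.8% of all genes kept. The share was 28.3% among genes with 10 FPKM or more in 1-cell embryos. Only Mos, Pou5f1, Khdc3 and Slc18a2 of the 22 were under that level. Of the 22, 1, Zp1, was at least 2-fold higher, against 45.7% of genes of any starting level. Their median was -1.70, against 0.83 for all genes, and 10 of the 22 are also among the oocyte markers above. Ooep, a subunit of the subcortical maternal complex, stood at 394, 140 and 12.5 FPKM over the 3 untreated stages (-4.87). Oas1e, of the oligoadenylate synthetase family, went from 638 to 261 and 23.0 FPKM (-4.74). Nlrp4f went from 336 FPKM at the early to 23.9 at the late 2-cell stage. Between the 2-cell stages 12 of 22 were 2-fold lower, against 10.9% of all genes and 23.0% of those with 10 FPKM or more at the early stage. Of the 22, 2, Zp1 and Zp3, were higher, against 47.9%. Zp1 was at 19.3 FPKM in 1-cell and 40.3 in late 2-cell embryos, Zp2 at 37.2 and 27.7, and Zp3 at 53.0 and 101. At the first cleavage 4 of 22 were 2-fold lower, including Ooep (-1.48) and Padi6 (-1.39, from 37.2 to 13.6 FPKM), and 0 higher, against 3.72%. The shares of lower genes were 7.12% of all genes and 10.8% of those with 10 FPKM or more in 1-cell embryos. With TSA 2 of 22 were 2-fold lower, against 4.08%, and 0 were higher, against 2.51%. The lower ones were Nlrp4f at 10.5 against 23.9 FPKM and Rspo2 at 33.6 against 68.7 FPKM.

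Other transcription regulators of the oocyte went both ways. Over the interval, 4 of 16 kept were at least 2-fold lower, against 13.8% of all genes, and 4 higher, against 45.7%. Their median was -0.37 as deposited and ran from -1.17 with median-ratio scaling to -0.05 with no filter. Between the 2-cell stages 3 of 15 were lower, against 10.9%, and 4 higher, against 47.9%. The homeobox gene Obox1 went from 1357 FPKM in 1-cell and 1742 in early to 72.3 in late 2-cell embryos, and copies of its family share reads. Rarg, a retinoic acid receptor, went from 0.353 and 0.206 to 26.5 FPKM. Tbpl2, the oocyte relative of the TATA-binding protein, was at 20.8, 21.3 and 1.53 FPKM, and Taf4b, a TFIID subunit of the ovary, at 12.6, 16.4 and 51.2 FPKM. Sohlh2, the partner of Sohlh1, was at 1.01 FPKM in 1-cell and 0.134 in late 2-cell embryos. At the first cleavage 0 of 15 were 2-fold apart, against 7.12% of all genes lower and 3.72% higher. Esr1 was at 3.22 against 1.20 FPKM and Rad51c at 9.10 against 14.9. With TSA 0 of 15 were 2-fold apart, against 4.08% of all genes lower and 2.51% higher. Foxo3, the factor that keeps small follicles dormant, was at 1.61 against 3.95 FPKM and Bcl6 at 0.150 against 1.14.

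The receptors and signal carriers of GDF9 and BMP15 showed no common direction. BMPR2 is the type II receptor of both ligands, and Bmpr2 was at 55.0, 43.8 and 52.4 FPKM over the untreated stages and at 37.0 FPKM with TSA. Bmpr1b, a type I receptor, was at 14.9, 7.98, 3.34 and 2.35 FPKM, a difference of -1.88 over the interval, while Tgfbr1, another type I receptor, was at 2.32, 2.67, 15.4 and 11.0 FPKM. Of 22 genes of this list kept, 7 were at least 2-fold higher over the interval, against 45.7% of all genes, and 2 lower, against 13.8%. The median was 0.20 as deposited, below that of all genes, and -0.65 at the lowest of the alternative settings. From the early to the late 2-cell stage 10 of 21 were 2-fold higher, near the 47.9% of all genes, and 2 lower, near the 10.9%. Smad7, an inhibitor of the pathway, went from 0.644 and 1.56 FPKM to 14.7 and was at 44.0 FPKM with TSA (1.52). It was the single gene of the 22 that was 2-fold apart with TSA, against 4.08% of all genes lower and 2.51% higher. Smurf1, a ubiquitin ligase, was at 2.70 with against 5.69 FPKM without. Fstl3 and Fst, binders of activin-like ligands, went from 0.742 to 11.0 and from 0.331 to 5.17 FPKM. At the first cleavage 0 of 19 were 2-fold apart, against 7.12% of all genes lower and 3.72% higher. Pcsk6, a proprotein convertase, was at 0.619 against 1.95 FPKM.

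Of other ligands of the TGF-beta family, 7 of 17 reached 1 FPKM, with a median of 0.61 over the interval as deposited and -0.63 at the lowest of the alternative settings. Tgfb2 was at 358, 247 and 215 FPKM over the untreated stages, between Bmp15 and Gdf9 in level at each stage. Tgfb3 was at 4.72, 3.43 and 5.45 FPKM. Lefty1 and Gdf3 were listed at 0 at both early stages and at 1.42 and 1.14 FPKM at the late one, and no fold is given. With TSA 1 of 7 was 2-fold lower, against 4.08% of all genes (Lefty1, 0.205 against 1.42 FPKM), and Bmp7 was at 1.51 against 2.63 FPKM.

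Genes of the pathway from KIT through phosphoinositide 3-kinase to FOXO3 had a median of 0.79 over the interval, close to the 0.83 of all genes, and of -0.04 at the lowest of the alternative settings. Of 26 genes kept, 12 were at least 2-fold higher and 2 lower, and between the 2-cell stages 14 were higher and 2 lower. The counts of higher genes are near the shares over all genes, 45.7% and 47.9%. The counts of lower genes stand against shares of 13.8% and 10.9%. Kitl, the ligand of KIT, was at 6.44, 5.07, 11.8 and 10.2 FPKM. Cbl, a ubiquitin ligase that acts on activated receptors, went from 2.72 to 18.0 FPKM, and Cdkn1b, the cell cycle inhibitor p27, from 12.2 to 1.80. Between the 2-cell stages Sos1, an exchange factor for Ras, went from 1.33 to 15.2 and Rps6, of the small ribosomal subunit, from 7.51 to 57.1 FPKM. Of 24 genes kept at the first cleavage 0 were 2-fold apart, against 7.12% of all genes lower and 3.72% higher. Cdkn1b (-0.81) and Sos1 (-0.78) were furthest. With TSA 1 of 26 was 2-fold higher and 1 lower, near the 2.51% and 4.08% of all genes. Pik3cd, a catalytic subunit of the kinase, was at 42.7 against 9.61 FPKM, where 1-cell embryos had 40.1, and Sh2b3, an adaptor that restrains KIT signals, was at 5.01 against 13.6 FPKM.

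Relatives of Oosp1, Rfpl4 and Spin1 took other courses. Of 14 names 8 were in the table, and 7 of these were kept over the interval, with 3 at least 2-fold lower, against 13.8% of all genes, and 3 higher, against 45.7%. Their median was 0.31 as deposited and -2.05 at the lowest of the alternative settings. Oosp2 was at 863, 547 and 45.6 FPKM from the 1-cell to the late 2-cell stage and Oosp3 at 258, 278 and 14.8, against 1311, 1242 and 826 for Oosp1. Rfpl4b was at 0.113, 0.524 and 17.4 FPKM, against 1182, 594 and 20.5 for Rfpl4, so these genes ended at like levels from opposite sides. Spin2c was at 0.304, 1.83 and 4.14 FPKM, and Spin4 at 1.17, 0.901 and 1.68. Spin2c was the 1 gene of 6 that differed 2-fold at the first cleavage, being higher (1.12), against 3.72% of all genes higher and 7.12% lower. With TSA 2 of 7 were 2-fold lower, against 4.08%, and 0 were higher, against 2.51%. The lower ones were Plac1 at 6.53 against 20.4 FPKM and Spin2c at 1.38 against 4.14.

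**Figure D4:**
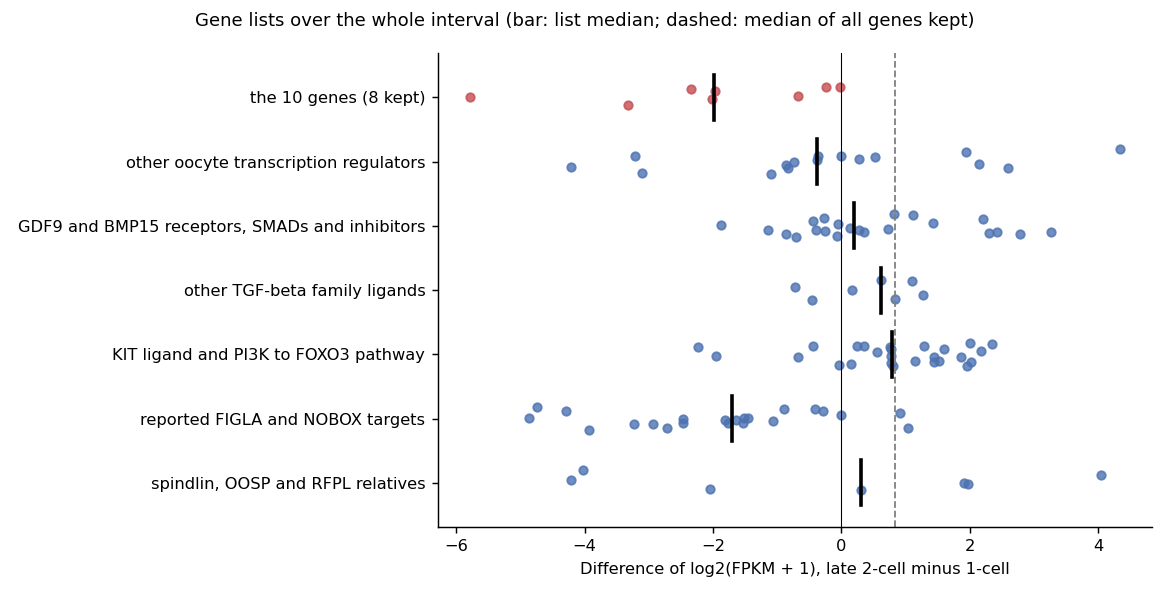
Difference of log2(FPKM + 1) between late 2-cell and 1-cell embryos (x axis) for the genes of each list that reached 1 FPKM in either column (points, 1 per gene), with the list median (bar) and the median of all genes kept (dashed, 0.83). The medians of the 10 genes (-1.99, over 8) and of the reported FIGLA and NOBOX targets (-1.70) lie furthest left.

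The genes nearest in profile to 4 of the members were found by Euclidean distance between 4-column profiles of log2(FPKM + 1), each centred on its mean, among 8608 genes. Nearest to Gdf9 were Natd1 (0.033), Gpbp1l1 (0.041) and Itfg1 (0.059). Nearest to Bmp15 were AA536875 (0.102), Ms4a6d (0.120) and Ncald (0.133). AA536875 was at 277, 210, 72.3 and 42.0 FPKM, so it too was lower in each column than in the one before. Kit was nearest to Psmd1 (0.094), Bnip2 (0.103) and Dnajc13 (0.104), and Spin1 to Itga9 (0.206), Ccnb2 (0.207) and Mmp12 (0.226). Ccnb2, a B-type cyclin, was at 258, 347, 49.5 and 69.4 FPKM, with the high value at the early 2-cell stage as in Spin1. The distances rest on 4 values per profile and are a description. Among the 8 genes themselves the closest pair was Gdf9 and Kit (0.60), then Bmp15 and Lhx8 (0.63), and the furthest was Kit and Rfpl4 (5.28).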

How the data were processed

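RNA libraries from 4 groups of SCNT embryos were used, with 5 libraries listed per group. Per the file headers, the deposited values are log2(FPKM + 1), 1 for each gene and group. Per the submitters' processing notes, the build was mm10 and the tools were HISAT2 2.1.0, StringTie 1.3.4, Cufflinks, SAMtools 1.7, Bowtie2 2.3.4.3 and deepTools 2.5.7, with no roles given. The annotation, the use of strand and the way libraries were combined into a column were not given in the sources used here. The 1-cell column is named by 13 h and was matched through the protocol's 13 to 14 h. For 2 further columns no RNA library is labelled, and these were left out.

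FPKM divides by the column's total, so very abundant genes press down the rest, and adding 1 understates differences of genes near 1 FPKM. Depth is unknown: low values times genomic span lay within 0.1 of whole multiples in 25.9% to 26.6% of cases at the best step, against 20% with no steps, and span includes introns. Differences of log2(FPKM + 1) were taken with Python 3.11.15, pandas 2.3.3 and NumPy 2.4.6 over genes with at least 1 FPKM in a column compared. No test was run, since there is 1 value per group. The calculation was also checked on simulated data made with known changes. The comparisons were also run with pseudocounts of 0.1 and 5 FPKM, no filter or one of 5 FPKM, median-ratio scaling, quantile normalization, and columns rescaled to 1 sum with or without Spin1 and Rn45s.

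The 10 genes and the lists were chosen with earlier results of these data known. The 2 genes with the largest absolute difference per list and comparison were named by rule, and others by their role, after their values were seen. The likeness rule named the 3 nearest genes with at least 5 FPKM in a column, predicted genes left out. Gene positions are from RefSeq (GRCm38.p6), which matched all 10 genes by symbol.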

Additional observations from a re-analysis of the deposited data

How the results depend on the processing

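Of 254 values of single genes of the 8 under alternative settings, 236 kept their sign and their side of 2-fold. A further 3 dropped under it and 5 passed it. The last 10 changed sign while within 2-fold, or came to 0.00 (Spin1 at the first cleavage after quantile normalization). The counts of the 8 genes 2-fold lower or higher were within 1.5 times the reported count in every setting except at the first cleavage. There, 1 gene was 2-fold lower as reported, 0 were with a pseudocount of 5 FPKM, median-ratio scaling or quantile normalization (Nobox at -0.96, -0.99 and -0.77), and 2 were with columns rescaled to the same sum, with or without Spin1 and Rn45s (Rfpl4 at -1.03 and -1.01). The cause was not tested.

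Counts over all genes moved more. At the first cleavage, 720 lower genes became 1152 and 334 with pseudocounts of 0.1 and 5, and 376 higher genes became 713 and 90, 182 with the 5 FPKM filter and 572 after quantile normalization. Between the 2-cell stages, 1399 lower became 847 with a pseudocount of 5, 3188 with median-ratio scaling and 3556 with quantile normalization, and 6128 higher became 3556, 3758 and 3419. Over the interval, 1774 lower became 1133, 3450 and 3834 in that order, and 5883 higher became 3429, 3810 and 3458. With TSA, 520 lower became 1074 and 92 with the pseudocounts, 280 with the 5 FPKM filter, 233 with median-ratio scaling and 319 with quantile normalization, and 320 higher became 614, 89 and 179 in the first 3.

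No paired analysis was possible because the table gives 1 value per group, and leaving out a replicate could not be run for the same reason. Depth is unknown, so no detection limit is given for Figla and Sohlh1.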

Other observations

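The genes with a lower difference than Rfpl4 were looked up after its rank was seen. Between the 2-cell stages these were Mir155hg (162 to 0.517 FPKM), Casp8 (62.6 to 0.443) and 4933427D06Rik (196 to 5.53). Over the whole interval they were Myef2 (957 to 10.2 FPKM), Gm813 (358 to 4.88) and Paip1 (2377 to 39.1). Mir155hg was listed at 0 in 1-cell and at 169 FPKM in TSA-treated embryos, Myef2 at 104 and Paip1 at 593 FPKM with TSA, so these 3 did not keep a low level in both late 2-cell columns. Casp8, at 69.2, 62.6, 0.443 and 0.929 FPKM, did so, as did Rfpl4 at 20.5 and 30.5 FPKM. The same held for 4933427D06Rik at 5.53 and 3.31 FPKM and for Gm813 at 4.88 and 3.59 FPKM.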
